A study of Mus musculus with 8 samples.

Results

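The 7 genes described here act in glucose sensing in mouse pancreatic islets and are Txnip, Arrdc4, Mlxipl, Mlx, Slc2a2, G6pc2 and Pfkfb2. They were picked by symbol for their place in the ChREBP and TXNIP axis, with earlier results of these data known. All 7 of 7 were among the 16333 genes deposited. Islets came from 4 adult mice labelled with the strain Agouti/C57BL6, 2 in which tamoxifen had removed NFATc2 from insulin-expressing cells (NFATc2βKO, here KO) and 2 wild-type mice (WT) given tamoxifen with no deletion as its outcome. After a night in 5.5 mM glucose, islets of every mouse were divided between an untreated culture and a culture that received 11 mM glucose together with IFNγ (50 ng/mL), TNFα (10 ng/mL) and IL1β (5 ng/mL), each for 2 h. This gave 4 groups of 2 libraries, each group with 1 female and 1 male mouse by its Y-linked reads, and the replicate is the mouse. Cytokines and raised glucose came together, so their effects cannot be told apart, and the medium of the untreated cultures during those 2 h is not described separately from the overnight one. The labels name neither the exons removed nor the transgene that drives the recombination, and islets keep their other cell types with an intact gene. In such bulk tissue, fewer cells of a type and less RNA per cell cannot be told apart.

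Beta cells take up glucose through GLUT2, the transporter encoded by Slc2a2, and commit it to glycolysis by phosphorylation. ChREBP, the product of Mlxipl, is a transcription factor that responds to glucose metabolites and binds DNA as a pair with its partner MLX. Txnip, among the best known ChREBP targets in islets, encodes a protein that binds and inhibits thioredoxin and restrains glucose uptake. High TXNIP is known for its link to beta cell death. Arrdc4 encodes an α-arrestin related to TXNIP and is likewise a target of the ChREBP and MondoA family. G6pc2 encodes the islet glucose-6-phosphatase subunit that opposes glucose phosphorylation, and Pfkfb2 encodes an enzyme that makes and breaks down the glycolytic activator fructose 2,6-bisphosphate.

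The carbohydrate response element through which ChREBP and MLX act is written as a pair of E-box-like half-sites with 5 bases between. The 250 bases before each RefSeq start site (GRCm38.p6) were therefore searched for the half-site CACGNG on both strands, for such a pair in any orientation, and for CCAAT, the box read by NF-Y, on both strands. CACGTG reads the same on both strands and was counted once, and no half-site match overlapped a CCAAT match. The windows of the targets Txnip and Arrdc4 and of the factor Mlxipl are shown because they are the genes the axis turns on. All are written 5′ to 3′ along the gene, with half-sites on either strand in capitals. Txnip lies at chr3:96557707-96557956 (plus strand), Arrdc4 at chr7:68749239-68749488 (minus strand) and Mlxipl at chr5:135089640-135089889 (plus strand).
Txnip: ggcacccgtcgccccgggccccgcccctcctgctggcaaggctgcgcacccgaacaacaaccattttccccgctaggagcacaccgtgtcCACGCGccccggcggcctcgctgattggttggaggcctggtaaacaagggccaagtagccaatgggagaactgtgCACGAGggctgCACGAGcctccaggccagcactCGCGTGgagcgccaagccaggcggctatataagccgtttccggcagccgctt
Arrdc4: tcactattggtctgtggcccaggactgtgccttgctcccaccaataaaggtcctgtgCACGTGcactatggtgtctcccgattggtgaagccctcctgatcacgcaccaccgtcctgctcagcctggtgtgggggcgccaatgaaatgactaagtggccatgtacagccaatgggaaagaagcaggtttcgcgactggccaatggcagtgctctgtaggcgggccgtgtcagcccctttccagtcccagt
Mlxipl: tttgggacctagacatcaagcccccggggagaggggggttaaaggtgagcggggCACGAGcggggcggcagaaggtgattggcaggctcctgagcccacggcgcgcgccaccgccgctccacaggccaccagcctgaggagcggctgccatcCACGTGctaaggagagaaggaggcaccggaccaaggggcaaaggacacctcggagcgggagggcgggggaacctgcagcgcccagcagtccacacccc
Only Txnip of the 7 genes held the pair, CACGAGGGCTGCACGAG, from -85 to -69 relative to the start site, with 4 half-sites in all. Among all 32851 windows of this length, 0.0731% held a pair, 23.5% a half-site and 33.8% a CCAAT box. Arrdc4 held 1 half-site, CACGTG, from -193 to -188, and 6 CCAAT matches. Mlxipl held CACGAG from -196 and CACGTG from -98, while the window of its second start site, 17001 bases downstream, held neither motif. Counting every RefSeq start, 5 of 7 genes had a half-site and 6 of 7 a CCAAT box. By window, the unit of the percentages above, 5 of 11 had a half-site and 6 of 11 a CCAAT box. Slc2a2 had CCAAT matches only, and G6pc2 had no match to either motif. A match describes the letters of these windows and shows no binding.

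**Figure D1:**
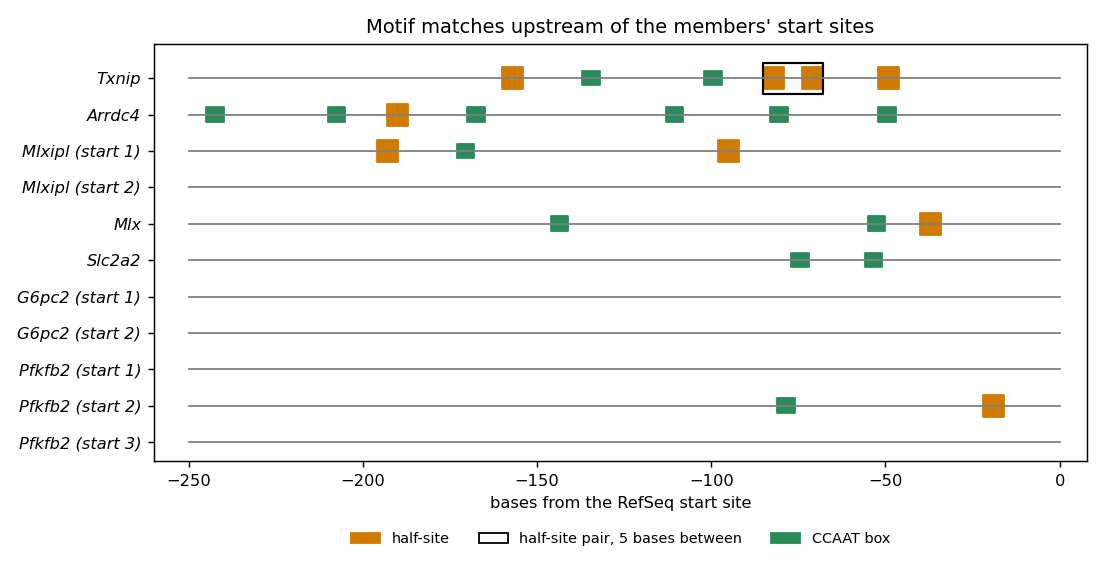
Positions of motif matches in the 250 bases before each RefSeq start site of the 7 genes (x axis, bases from the start site). Orange blocks are half-sites, green blocks CCAAT boxes and the black frame the half-site pair. Txnip has the pair, and G6pc2 has no match in either window.

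All 7 are protein-coding genes placed here by GENCODE M21 on GRCm38. The factor genes are Mlxipl (ENSMUSG00000005373, chr5:135089890-135138382, plus strand) and Mlx (ENSMUSG00000017801, chr11:101087277-101092207, plus strand). The target genes are Txnip (ENSMUSG00000038393, chr3:96557957-96561883, plus strand) and Arrdc4 (ENSMUSG00000042659, chr7:68736995-68749241, minus strand). Of the genes for glucose entry and handling, Slc2a2 (ENSMUSG00000027690) lies at chr3:28697903-28731359 and G6pc2 (ENSMUSG00000005232) at chr2:69211073-69227841, both on the plus strand, and Pfkfb2 (ENSMUSG00000026409) at chr1:130689182-130729253 on the minus strand. An antisense gene of no deposited row, Gm15441, shares 606 exon bases with Txnip.

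The 7 genes spanned a wide range of levels. Per kilobase of exon, the mean normalized count over the 8 libraries was 20936 for G6pc2 (16685 to 23721 across libraries), rank 12 of 16294 genes with an exon length. It was 1907 for Slc2a2 (1718 to 2164), 1285 for Txnip (947 to 1718), 737 for Mlxipl (422 to 1053) and 558 for Mlx (498 to 666). Pfkfb2 followed at 314 (288 to 338) and Arrdc4 at 108 (92.8 to 130). Library ranges of Txnip and Mlxipl overlapped, as did those of Mlxipl and Mlx, and those of Slc2a2 and Txnip met at 1718. The other neighbours in this order were apart. Mlxipl varied most across libraries, its highest being 2.49 times its lowest, and Pfkfb2 least, at 1.17 times.

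Nfatc2 itself read lower in KO islets, with log2 fold changes of -0.49 untreated and -0.56 with cytokines in the authors' deposited tables, neither past an FDR of 0.05. Cxcl10, a chemokine gene induced by interferon, and Nfkbia, the inhibitor that NF-κB induces, were higher after treatment in 4 of 4 mice, as were 12.4% of genes. In a limma fit over both genotypes with the mouse as a block, their log2 changes were 2.33 (adjusted p = 0.00249) and 0.80 (adjusted p = 0.00497). Over the 16316 genes with recovered reads, libraries held 14761623 to 27290359 assigned reads. Beta cell markers, 11 of 15 with recovered reads, summed to 0.649% to 0.716% of normalized counts in KO libraries and 0.503% to 0.615% in WT libraries. Acinar markers (14 of 16) ranged from 0.0418% to 0.746%, and no measured marker of the 8 cell type lists was at 0 in any library. The reads of the hormone genes Ins1, Ins2, Iapp and Gcg could not be recovered per library. Marker percentages throughout are shares of the normalized counts of recovered genes, which leave these hormone genes out.

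After cytokines and glucose, Txnip and Mlxipl were lower in all 4 mice, by small margins. Txnip fell 1.28-fold and Mlxipl 1.19-fold in a fit over both genotypes with the mouse as a block. The other 5 genes did not pass that test. Mlx, the partner of ChREBP, was also lower in 4 of 4 mice, which held for 12.5% of all genes.

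Txnip, the thioredoxin inhibitor, had 5366 (female) and 5160 (male) normalized counts in untreated KO islets and 4302 and 3483 after cytokines. In WT islets the values were 3549 and 3999 untreated and 2956 and 3277 after cytokines. Treated and untreated libraries did not overlap in either genotype, a separation found for 29.9% of genes in KO and 22.3% in WT islets. Within mice the level changed by -19.8% and -32.5% in KO and by -16.7% and -18% in WT, female before male. The common response was a log2 change of -0.36 (SE 0.050, limma with Benjamini-Hochberg adjustment over 16316 genes, adjusted p = 0.0166), and 48th by p-value. That fit called 145 genes, 0.889% of those tested, of which 45 (0.276%) were lower, and 2 of the 7 genes were among these. Leaving out the KO female or the WT male mouse raised the limma adjusted p of Txnip to 0.0915 and 0.083, and dropping the mouse block gave 0.755. In the authors' deposited tables, where 0.0429% and 0.0122% of genes were called in KO and WT islets, the cytokine responses of Txnip were -0.44 (SE 0.118, p = 0.000174, FDR 0.237) and -0.28 (SE 0.119, p = 0.0205, FDR 1). Neither was called. The difference between these responses, KO minus WT, was -0.17 (SE 0.168, adjusted p = 1, from the authors' DESeq2 estimates), so that no difference in response was called.

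The gene whose levels followed those of Txnip most closely over the 8 libraries was Ppy, the pancreatic polypeptide gene of another islet cell type (Pearson r of log2 levels 0.94, a description over libraries that share mice and normalization). Ppy had 31760 and 29544 normalized counts in untreated KO islets, 19795 and 14842 in treated KO, 13514 and 21338 in untreated WT and 13090 and 17074 in treated WT islets. The 8 delta, PP and epsilon cell markers, all 8 measured, summed to 0.406% and 0.302% of normalized counts in untreated KO islets and to 0.318% and 0.226% after cytokines. In WT islets the sums were 0.385% and 0.275%, and 0.394% and 0.231%. This sum includes Ppy. The other 7 markers summed to 0.244% and 0.156% untreated and 0.218% and 0.153% treated in KO islets, and to 0.316% and 0.168%, then 0.326% and 0.146%, in WT islets. The part of these cells in the Txnip result was not tested.

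Mlxipl, the gene for ChREBP, had 4775 and 2736 normalized counts in untreated KO islets and 3769 and 2339 after cytokines, female before male. In WT islets it had 5832 and 4410, and 4957 and 3815. The female library was the higher one in all 4 groups, and treated and untreated groups overlapped although every mouse had less after treatment. The changes within mice were -21.1% and -14.5% in KO and -15% and -13.5% in WT. With the mouse as a block the common log2 change was -0.25 (SE 0.0343, limma, adjusted p = 0.0153). It was not called without the KO female (adjusted p = 0.124), KO male (0.0679) or WT male mouse (0.0581), nor without the block (1) in limma. The responses in the authors' deposited tables were -0.30 (SE 0.321, FDR 1) in KO and -0.22 (SE 0.321, FDR 1) in WT islets.

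Mlx had 1131 and 1332 normalized counts untreated and 1081 and 1140 treated in KO islets, against 1089 and 1120, and 1036 and 996, in WT islets. Every mouse had less after treatment, with changes from -4.46% to -14.4%, but the common log2 change of -0.13 (SE 0.0435, limma, adjusted p = 0.184) was not called. Exons of Mlx overlap those of Psmc3ip on the opposite strand, and the sources used here do not say whether counting used strand.

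**Figure D2:**
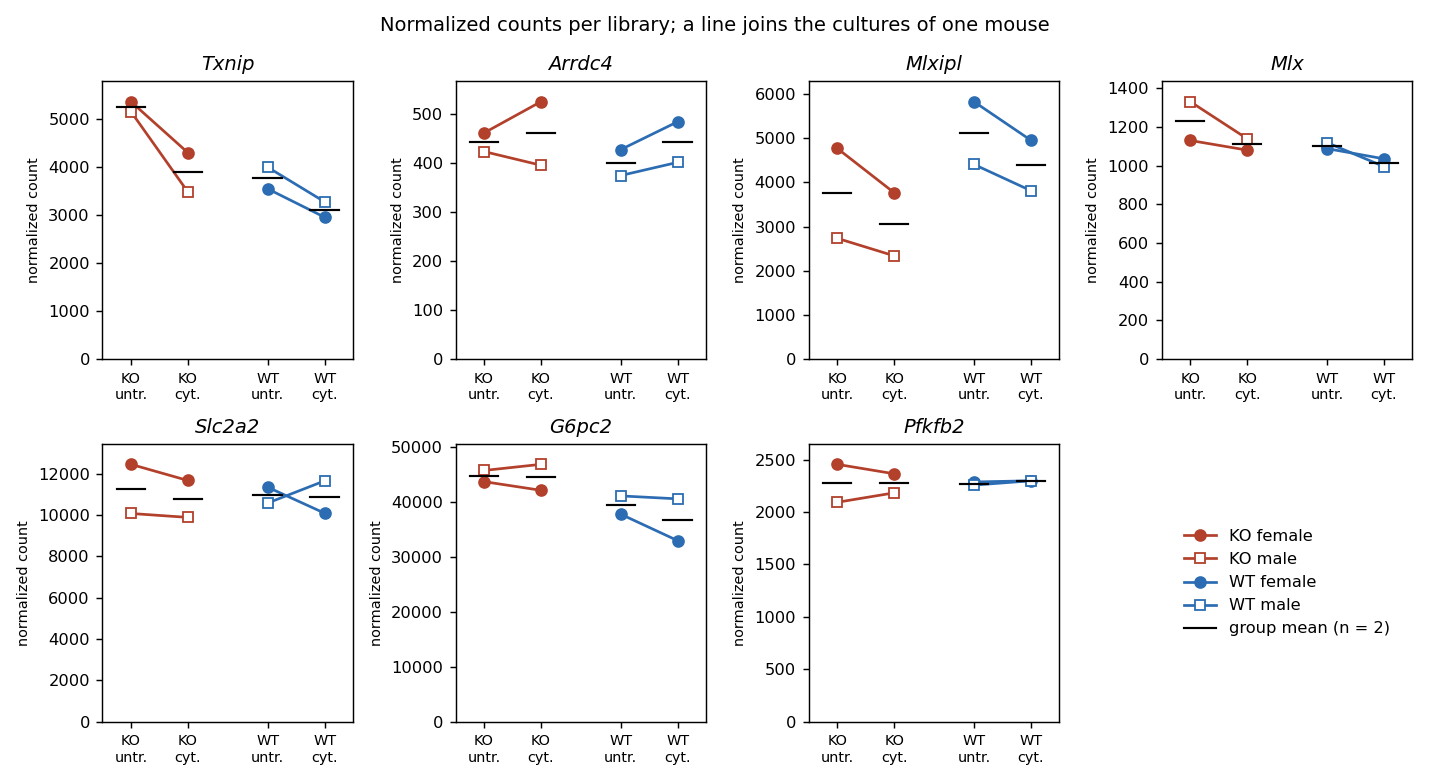
Normalized counts (y axis, from 0) of the 7 genes in each library, KO in red and WT in blue, filled circles for female and open squares for male mice. Lines join the untreated and cytokine cultures of a mouse and black bars are group means of 2 libraries. All 4 lines slope down for Txnip, Mlxipl and Mlx, and all KO points of G6pc2 lie above the WT points.

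Arrdc4, the α-arrestin relative of Txnip, did not follow it. Its normalized counts were 462 and 424 untreated and 526 and 396 treated in KO islets, and 428 and 375, then 485 and 402, in WT islets. In 3 mice it was higher after treatment and in the KO male lower, and the groups overlapped in both genotypes. The common log2 change was 0.09 (SE 0.0644, limma, adjusted p = 0.52). Over the 8 libraries, log2 levels of Arrdc4 and Txnip correlated with a Pearson r of 0.134, and those of Txnip and Mlxipl with -0.169, as descriptions of libraries that share mice.

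Slc2a2, the glucose transporter gene, had between 9888 and 12456 normalized counts over all libraries, with the KO male treated lowest and the KO female untreated highest. G6pc2 had 43677 and 45710 untreated and 42099 and 46826 treated in KO islets, against 37752 and 41081, then 32936 and 40545, in WT islets. Pfkfb2 stayed between 2092 and 2454, and both treated WT libraries read 2297. Treated and untreated libraries of Slc2a2 and G6pc2 overlapped in both genotypes. The common log2 changes in limma were -0.04 for Slc2a2 (adjusted p = 0.745), -0.06 for G6pc2 (adjusted p = 0.519) and 0.01 for Pfkfb2 (adjusted p = 0.928). In the authors' deposited tables the 95% intervals of the responses reached from -0.34 to 0.22 for Slc2a2 in KO islets, from -0.39 to 0.19 for G6pc2 in WT islets and from -0.25 to 0.26 for Pfkfb2 in KO islets. Exons of Pfkfb2 overlap those of Gm29427 and Yod1 by up to 1262 bases, and those of Mlxipl overlap the antisense gene Gm43500 by 235 bases.

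**Figure D3:**
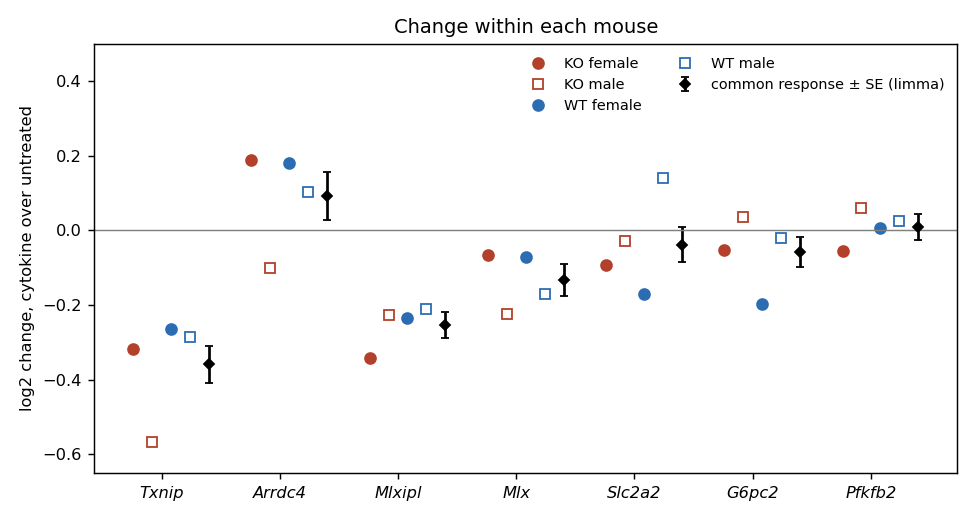
Log2 change of the normalized count, cytokine over untreated, in each of the 4 mice (y axis) for the 7 genes, with the common response from limma and its SE as a black diamond. Every mouse lies below 0 for Txnip, Mlxipl and Mlx, and the KO male has the largest change of Txnip, -0.57.

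Between genotypes, Txnip and G6pc2 read higher and Mlxipl lower in KO islets, but none of the 7 genes was called. The authors' deposited tables called 0.41% of all genes untreated and 0.998% with cytokines. Each of these comparisons rests on 2 mice against 2, and the treated and untreated libraries come from the same mice.

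Untreated Txnip averaged 5263 ± 146 normalized counts in KO and 3774 ± 318 in WT islets (SD, n = 2). Both KO libraries were above both WT libraries, a separation found for 37% of genes. The log2 fold change in the authors' deposited table was 0.48 (SE 0.146, p = 0.00106, FDR 0.135), rank 128 by p-value. With cytokines the means were 3892 ± 579 and 3117 ± 227 (SD, n = 2), again without overlap, as for 29% of genes. The fold change was then 0.32 (SE 0.147, p = 0.0295, FDR 0.645) in the authors' deposited table. Without the treated KO female library the limma estimate moved from 0.31 to 0.16. Over mouse means, 2 mice against 2, the difference was 0.40 (SE 0.115, limma, adjusted p = 0.644), a fit that called 0 genes and had 956 (5.86%) at an unadjusted p under 0.05. Treated KO islets overlapped untreated WT islets in Txnip, with 4302 and 3483 against 3549 and 3999.

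G6pc2 was the single gene of the 7 with all 4 KO libraries above all 4 WT libraries, a pattern of 5.36% of genes, and none had all 4 below, as 4.76% of genes did. Its lowest KO library read 42099 and its highest WT library 41081. The authors' deposited tables gave untreated KO islets 0.18 over WT (SE 0.137, FDR 1), and treated ones 0.28 (SE 0.137, p = 0.045, FDR 0.798). Without the treated WT female the limma estimate with cytokines moved from 0.28 to 0.13, without the treated WT male to 0.43, and without the untreated WT female the untreated estimate moved from 0.18 to 0.12.

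Several marker sums were apart between genotypes. Summed beta cell markers were higher in each KO library than in each WT library, but of the 11 single markers 7 were higher and 4 lower over mouse means, from -0.26 for Slc30a8 to 0.63 for Pcsk1. Endothelial markers (10 of 10 measured) summed to 0.0285% to 0.0372% in KO and 0.0453% to 0.0601% in WT libraries. Leukocyte markers (8 of 10) summed to 0.0132% to 0.0222% in KO and 0.00855% to 0.0118% in WT libraries. Acinar and stromal sums overlapped between genotypes but were higher in KO within each sex and condition. Acinar sums were 0.439% against 0.381% untreated and 0.746% against 0.182% treated in females, KO before WT. In males they were 0.193% against 0.0578% and 0.138% against 0.0418%. Stromal sums were 0.0306% to 0.0811% in KO and 0.0153% to 0.0686% in WT libraries. Over mouse means all 10 endothelial markers were lower in KO islets, and all 8 leukocyte markers were higher. In limma over mouse means 0 of these single markers were called, in a fit that called 0 of 16316 genes. Their part in the genotype differences of Txnip, G6pc2 and Mlxipl was not tested.

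Mlxipl averaged 3756 ± 1442 normalized counts in KO and 5121 ± 1005 in WT islets untreated, and 3054 ± 1011 against 4386 ± 807 with cytokines (SD, n = 2). The groups overlapped untreated and were apart with cytokines, as for 29% of genes, the KO female reading 3769 and the WT male 3815. The fold changes in the authors' deposited tables were -0.45 (SE 0.299, p = 0.134, FDR 1) and -0.52 (SE 0.299, p = 0.0806, FDR 1). Leaving out the KO male library moved the untreated limma estimate from -0.49 to -0.09, and leaving it out with cytokines moved the estimate from -0.55 to -0.21. Mlx had higher counts in both KO libraries than in both WT libraries in each condition. The genotypes were apart for 37% of genes untreated and 29% with cytokines. The fold changes of Mlx were 0.16 (SE 0.14) and 0.13 (SE 0.14), with an FDR of 1 in the authors' deposited tables. Arrdc4, Slc2a2 and Pfkfb2 overlapped between genotypes in both conditions, with fold changes between -0.02 and 0.14 in the authors' deposited tables.

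**Figure D4:**
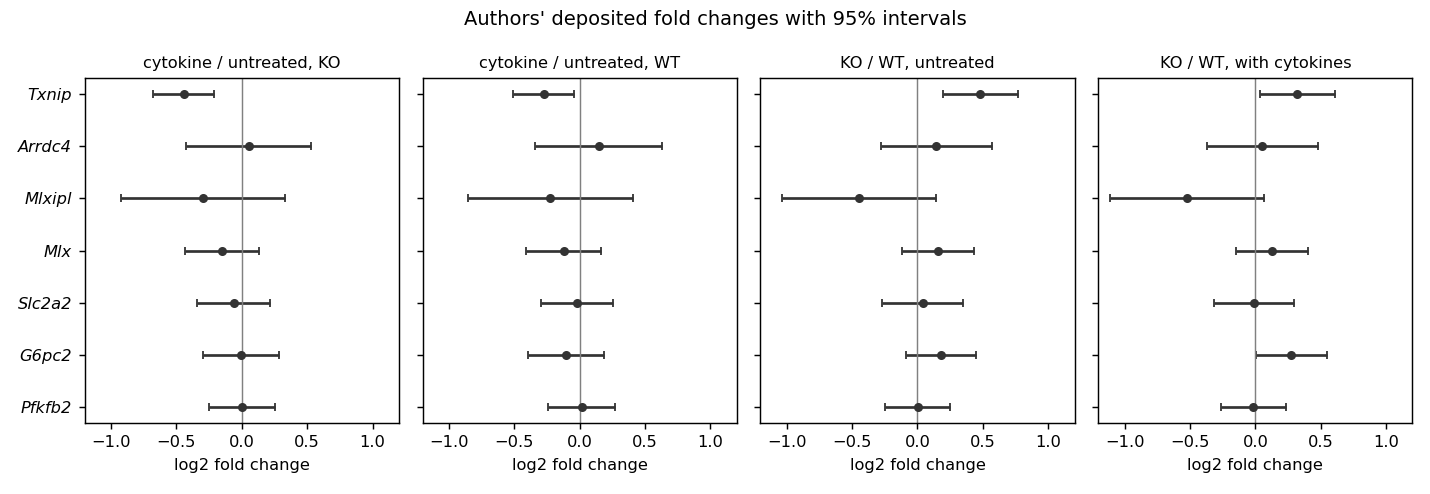
Log2 fold changes of the 7 genes in the 4 comparisons of the authors' deposited tables (x axis), with 95% intervals from the deposited statistics as bars. Intervals of Txnip leave out 0 in all 4 panels before adjustment, and that of G6pc2 in KO over WT with cytokines, and none passed the FDR.

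Seen as a list, the 7 genes had a median log2 change of -0.06 in KO and -0.10 in WT islets with cytokines in the authors' deposited tables, beside 0.00 for all genes in both. For KO over WT their medians were 0.14 untreated and 0.05 with cytokines. At an unadjusted p under 0.05 stood 1 of 7 in each cytokine comparison (1.02% and 0.918% of all genes), 1 untreated (4.89%) and 2 with cytokines (5.88%) in the authors' deposited tables.

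Around these genes, 5 lists of pathway genes were chosen with earlier results of these data known. Their calls are therefore given as a description only. These lists held 3 calls among 89 measured genes in the common response, where 0.889% of all genes were called. They held none in the authors' deposited tables, where 0.0122% to 0.998% of all genes were called. The list of ChREBP and MondoA partners, relatives and targets had 26 of 27 genes measured, and 1 passed. Mxd4, a repressor of the MAX network to which MLX also belongs, fell in all 4 mice by a log2 change of -0.21 to -0.25. Its normalized counts were 3198 and 3404 untreated and 2710 and 2938 treated in KO islets, and 3335 and 3231, then 2830 and 2713, in WT islets. Treated and untreated libraries did not overlap in either genotype, as for 29.9% of genes in KO and 22.3% in WT islets. The common change was -0.24 (SE 0.0309, limma, adjusted p = 0.0142). Its call was lost in limma without the KO female (adjusted p = 0.114), KO male (0.0715) or WT male mouse (0.0598), and without the block (0.665). Bhlhe40, a clock-linked repressor, had 0.43 (limma, adjusted p = 0.0573). Thrsp, a lipogenic ChREBP target, was at 9.31 to 127 normalized counts and read higher in KO islets in the authors' deposited table (1.87, SE 0.835, FDR 0.797, untreated). The list's median common change was 0.01.

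Among the 14 of 16 measured genes of the thioredoxin system, the α-arrestins and the inflammasome, Arrdc3 and Il1b were called higher and none lower. Arrdc3, another α-arrestin, went opposite to Txnip: 2086 and 1722 normalized counts became 2355 and 2196 in KO islets, and 1695 and 2039 became 2205 and 2816 in WT islets. Every mouse had more after treatment, and the common log2 change was 0.34 (SE 0.0477, limma, adjusted p = 0.0166), lost without the KO male (0.0715) or WT male mouse (0.0934) or without the block (1). Il1b, the inflammasome substrate, was low. It had 17.2 to 30.3 normalized counts untreated and 32.5 to 69.6 treated. Its treated and untreated libraries did not overlap within either genotype, as for 29.9% of genes in KO and 22.3% in WT islets. It rose 2.02-fold (SE 0.17 on the log2 scale, limma, adjusted p = 0.0395), a call lost without any 1 of the 4 mice (adjusted p from 0.053 to 0.154) and without the block (0.665). Casp1, which cleaves the IL1β precursor, read higher in KO islets with cytokines in the authors' deposited table (1.71, SE 0.656, FDR 0.345). Its normalized counts there were 45.7 and 43.3 against 7.6 and 19.2, female before male. Leukocyte markers, 8 of 10 measured, summed to 0.02% and 0.0222% in treated KO and 0.0118% and 0.00909% in treated WT libraries, and their part in Casp1 and Il1b was not tested.

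No gene passed in the lists of glucose uptake and phosphorylation (12 of 15 measured), glycolysis (21 of 22) or coupling of glycolysis to secretion (16 of 16). Hk2, a hexokinase with high glucose affinity, had 0.73 (SE 0.222, limma, adjusted p = 0.158), with 213 normalized counts in the treated WT female against 62.5 to 128 in the other 7 libraries. Slc2a8, a sugar transporter, read 0.51 higher in KO islets with cytokines (SE 0.221, FDR 0.562), and Slc2a1, the GLUT1 gene, 0.61 higher untreated (SE 0.317, FDR 1), in the authors' deposited tables. Of the 21 glycolysis genes, 17 had positive values for the cytokine response in WT islets (median 0.11, beside 50.9% of all genes) and 8 in KO islets (median -0.09, beside 50.3%) in the authors' deposited tables. By mouse, 17 were positive in the WT female (median 0.22) and 12 in the WT male (median 0.02). For KO over WT, 14 were positive untreated (median 0.10, beside 49% of all genes) and 4 with cytokines (median -0.16, beside 49.2%) in the authors' deposited tables. Such uneven signs were not particular to glycolysis. In KO over WT untreated, 11 glucose uptake and phosphorylation genes were positive and 1 negative in the authors' deposited table. With cytokines, 2 coupling genes were positive and 14 negative there. Pfkfb4, a relative of Pfkfb2, had 321 and 475 normalized counts in untreated KO and 259 and 283 in untreated WT islets, then 373 and 447 against 250 and 256. All 4 KO libraries were above all 4 WT libraries, as for 5.36% of genes. With cytokines the fold change was 0.70 (SE 0.248, p = 0.00473, FDR 0.22) in the authors' deposited table. Gapdh read lower in KO islets untreated (-0.42, SE 0.187, FDR 0.784), and Pfkl lower with cytokines (-0.46, SE 0.225, FDR 0.77), in the authors' deposited tables. Among coupling genes the smallest p-values were in KO over WT, with -0.50 for the calcium channel gene Cacna1c (SE 0.258, FDR 0.867) and -0.33 for the aspartate aminotransferase gene Got1 (SE 0.2, FDR 1) with cytokines in the authors' deposited table.

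Other genes with a half-site pair like that of Txnip were described after the values had been seen. Of 23 genes with such a window, 15 had recovered reads. Of the 14 besides Txnip, 7 were lower in the common response, beside 49.6% of all genes, and 1 was called, beside 0.889%. That call was Nfkb2, an NF-κB subunit gene, which rose by 0.71 (SE 0.0743, limma, adjusted p = 0.00437) and so went the other way. Its limma adjusted p was 0.00673 to 0.0311 without each mouse in turn and 0.665 without the block. Pklr, the pyruvate kinase gene in which the element is classically known, had -0.07 (SE 0.0749, limma, adjusted p = 0.712). Without Txnip their median change was -0.02.

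For the remaining genes of like pattern, the highest Pearson r over 8 libraries among 14231 genes was 0.99 for Mlxipl with Slc6a19, Cdh4 and Slc8a2, and 0.99 for Arrdc4 with Itgb6 and Ampd3. G6pc2 was followed most closely by Utrn (0.99), Slc2a2 by Acadm (0.98), Mlx by Impg2 (0.97) and Pfkfb2 by Dbpht2 (0.98). After Ppy, the genes nearest to Txnip were 4930402H24Rik (0.93) and Tspan3 (0.92). With 8 points from 4 mice and this many genes, high values occur widely, and these are descriptions.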

How the data were processed

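RNA from isolated islets was sequenced in 8 libraries of 4 mice. HISAT2, HTSeq, DESeq2 and the build GRCm38 are named, without versions or roles, per the submitters' processing notes. The authors deposited 4 tables of their comparisons. Their signal columns hold group means of counts scaled by a library's size factor, per the file headers. The deposited log2 fold changes and scores (Wald statistics) gave the SE as their ratio, and the deposited p-values carry an FDR over 16333 genes, called below 0.05. The smallest deposited mean signal was 23.2, so low genes had been removed. "Mut" in the tables matches no label and was taken for wild type, the remaining genotype.

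Whole reads per library were recovered from the 10 digits of the group means for 16316 genes (99.9%), with 1 solution for 16119 and through the mean over all libraries for 197. Both libraries of a mouse were matched within a genotype by 4 Y-linked genes (at most 37 reads in females, at least 7516 in males). The numbers in the titles pair libraries by mouse, but a title gives the second untreated WT library as rep 1. Deviations of same-mouse libraries correlated with 0.770 in KO and 0.775 in WT over 14231 genes. limma 3.58.1 in R 4.3.3 was run on log2 (normalized count + 1) with a trend. The main fit across both genotypes had the mouse as a block. Read recovery and fits were tested on simulated data. KO minus WT over mouse means, the genes with a half-site pair and the sign counts of pathway lists were chosen after seeing the data. Gene positions and exon lengths came from GENCODE M21 (GRCm38) and promoter windows from RefSeq (GRCm38.p6), matched by symbol for 7 of 7 genes.

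The 7 genes, the 5 pathway lists and the 8 marker lists (beta, alpha, delta with PP and epsilon, acinar, duct, endothelial, stromal and leukocyte) were chosen with earlier results of these data known. From each pathway list at most the 3 genes with the smallest authors' p, and any called, were named, and for likeness the genes with the highest r among those with a mean of at least 50. Ppy and Nfkb2 values are given because these rules or the half-site search led to them. Alpha markers summed to 0.442% to 0.552%, duct to 0.134% to 0.195% and stromal to 0.0153% to 0.0811% of normalized counts.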

Additional observations from a re-analysis of the deposited data

How the results depend on the processing

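Of 350 alternatives for 49 results on the 7 genes, 36 reversed a sign, 29 of them by leaving out a library or mouse, and every reversed result lay within 0.30 of 0 on the log2 scale. The cause was not tested.

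With the mouse as a replicate block, limma called 20 genes in the cytokine response of KO islets and 25 in WT islets, against 0 and 0 without the replicate block and 7 and 2 in the authors' deposited tables. The replicate block changed no call of the 7 genes within a genotype. Without it, the common response called 0 genes in place of 145, and Txnip (-0.36) and Mlxipl (-0.25) lost their calls. For KO over WT the authors' tables called 67 genes untreated and 163 with cytokines, limma 2 and 2, and limma with a sex covariate 342 and 612. Both of these limma fits count 2 libraries of a mouse as independent, so that p-values of the last one are too small. The last fit alone called Mlxipl with cytokines (-0.55, adjusted p = 0.0442). Restricting to means of at least 50 left 103 calls with cytokines.

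Leaving out a mouse gave 30 to 178 calls in the common response, lowest without the KO female, and -0.39 to -0.29 for Txnip and -0.27 to -0.22 for Mlxipl. Leaving out libraries, the cytokine response in KO islets ranged from -0.69 to 0.12 for Mlxipl, -0.16 to 0.25 for Arrdc4, -0.21 to 0.092 for Slc2a2, -0.086 to 0.068 for G6pc2 and -0.11 to 0.12 for Pfkfb2. In WT islets it ranged from -0.12 to 0.089 for Slc2a2 and -0.26 to 0.042 for G6pc2. KO over WT untreated ranged from -0.12 to 0.18 for Slc2a2 and -0.12 to 0.11 for Pfkfb2, and with cytokines from -0.16 to 0.25 for Arrdc4, -0.13 to 0.11 for Slc2a2 and -0.074 to 0.041 for Pfkfb2. Leaving out mice, the common response ranged from -0.10 to 0.0062 for Slc2a2 and from -0.0072 to 0.031 for Pfkfb2. KO minus WT over mouse means then ranged from -0.038 to 0.23 for Arrdc4, -0.13 to 0.15 for Slc2a2 and -0.10 to 0.077 for Pfkfb2. Where 1 library was left in a group, it was assumed to vary like the other groups.

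Scaled to the total of assigned reads over the recovered genes, Slc2a2 had 0.0013 in the WT cytokine response. In KO minus WT over mouse means it had -0.0073. Pfkfb2 in KO over WT untreated, 0.0008 in the authors' deposited table, was -0.0034 in limma without the block, with the sex covariate and with a pseudocount of 5, -0.0104 scaled to the total and -0.0107 with totals that leave out the 100 most abundant genes. Each of the 7 genes had at least 322 reads in every library. What limits the calls was not tested.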
